A study of Mus musculus with 6 samples.

Results

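Endothelial nuclei were described in single-nucleus RNA sequencing (10x 3′ chemistry, frozen tissue) of hippocampi from aged mice. They were selected on measured values, the UMI counts of a few genes. A barcode was taken as an endothelial nucleus when it held at least 500 unique molecular identifiers (UMIs, counted RNA molecules), at most 5% of them from mitochondrial genes, and at least 1 UMI in at least 3 of 7 endothelial genes (Flt1, Cldn5, Pecam1, Cdh5, Slco1a4, Abcb1a and Mecom). It also had to show fewer than 3 of 6 pericyte genes (Rgs5, Abcc9, Kcnj8, Pdgfrb, Vtn and Atp13a5) and at most 1 UMI of Slc17a7, the vesicular glutamate transporter gene of excitatory neurons. Of 53824 deposited barcodes, 53294 passed the UMI and mitochondrial limits, and 431 of these (0.809%) met the whole rule.

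Endothelial cells line the blood vessels. In the brain they form the blood-brain barrier: tight junctions seal the gaps between neighbouring cells, efflux pumps return foreign compounds to the blood, and carriers bring in glucose, amino acids and hormones, while transport in vesicles is held low. They receive signals from the blood stream, through shear stress and vasoactive peptides, and from pericytes and astrocytes, through VEGF, Notch and Wnt ligands, and they lie on a basement membrane of type IV collagen and laminin.

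The 6 libraries comprised 3 of mice given sevoflurane, a volatile anaesthetic, and 3 of controls. The treated mice inhaled 2% sevoflurane together with 60% O2 for 6 h at 1 L/min, and the controls inhaled 60% O2 without the anaesthetic, at an equal flow and for equally long. All mice were given as 18 to 20 months old, and the raised oxygen was thus common to both groups. No strain is given in the labels, and no label says how many animals entered a library, so p-values measure only the spread between libraries. By their labels, both replicates 3 came from females and the other 4 libraries from males.

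The endothelial nuclei numbered 98, 42 and 80 in oxygen replicates 1 to 3, and 23, 71 and 117 in sevoflurane replicates 1 to 3. Their UMIs summed to between 74685 (sevoflurane replicate 1) and 370952 (sevoflurane replicate 3) per library, which sets the precision of each value below. A nucleus held 705 to 22550 UMIs, with a median of 2575, and the library medians lay between 2397 and 3048. By contrast, all nuclei passing the limits had library medians of 4793 to 6230 UMIs. Several libraries went against their labels. Sevoflurane replicate 1, labelled male, was the sole library with Xist at a high level (736 CPM, counts per 1000000 UMIs, in its endothelial nuclei, against 0 in each of the other 5 libraries), and the 2 libraries labelled female carried 367 and 374 CPM of 4 Y-linked genes over all nuclei. These 3 labels therefore go against the data on sex, and no comparison by sex was made. In total 326 barcodes occurred in 2 or more libraries, 7 of them on endothelial nuclei, and 0 barcodes marked an endothelial nucleus in 2 libraries.

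**Figure D1:**
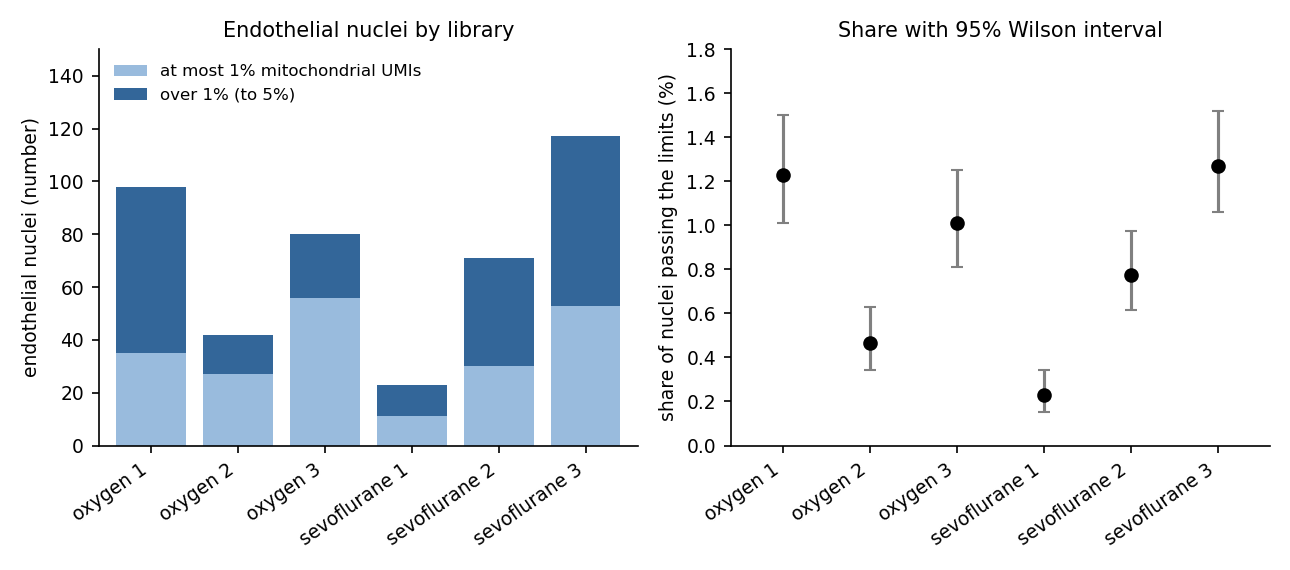
Left: number of endothelial nuclei in each of the 6 libraries, stacked by mitochondrial share (light, at most 1% of UMIs; dark, over 1%). Right: their share of all nuclei passing the limits, in percent, with the 95% Wilson interval, which covers counting error alone; sevoflurane replicate 1 is lowest at 0.23% and sevoflurane replicate 3 highest at 1.27%.

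The share of endothelial nuclei did not separate the groups. It was 1.23%, 0.464% and 1.01% in the oxygen libraries and 0.23%, 0.774% and 1.27% in the sevoflurane libraries, so the ranges overlapped and the lowest and the highest value both came from sevoflurane. The means were 0.903% ± 0.396 and 0.759% ± 0.522 (SD, n = 3), and an exact two-sided permutation test over the 20 splits gave p = 0.8, where the smallest p this design allows is 0.10. Left out, oxygen replicate 1 or sevoflurane replicate 1 turned the direction of this small difference, to 0.022 and 0.12 percentage points more endothelial nuclei after sevoflurane. Median UMIs per endothelial nucleus overlapped as well (2697 ± 322 with oxygen, 2501 ± 142 with sevoflurane, exact permutation p = 0.6).

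The endothelial label was checked on the markers. The 7 genes of the rule, which chose the nuclei and are given as a description only, summed to 6284 to 11398 CPM in the 6 libraries, against means of 31.7 CPM in 2126 astrocyte nuclei and 45.9 CPM in 1580 microglia nuclei. Flt1, the VEGF receptor 1 gene, was the most abundant of them at 2106 to 4354 CPM, and Cdh5, the gene of vascular endothelial cadherin, the least at 173 to 362 CPM. The 10 capillary genes that the rule did not use summed to 2443 to 5807 CPM, against 352 CPM in astrocyte nuclei. Of the 6 pericyte genes, Rgs5 alone was abundant, at 711 to 1971 CPM, while each of the other 5 stayed between 0 and 80.3 CPM. The rule limited the pericyte genes, so their low values were partly set by it and are also a description only. Among genes outside the rule, the cell type name is carried by the capillary genes.

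RNA of other cells was present in these nuclei at uneven levels. Pan-neuronal markers (6 genes, Snap25 and Syt1 the most abundant) summed to 1754 to 2488 CPM, near the 1789 CPM of astrocyte nuclei, and 260 of the 431 nuclei showed at least 3 of these 6 markers. Choroid plexus markers summed to 11363 CPM in oxygen replicate 3, of which Ttr, the transthyretin gene, made 10961 CPM, against 682 and 94.3 CPM in the other oxygen libraries and 2.7 to 24.6 CPM in the sevoflurane libraries, so that these groups did not overlap either (exact permutation p = 0.1). Fibroblast markers were also highest in oxygen replicate 3, at 636 CPM, against 44.4 to 254 CPM elsewhere. Smooth muscle markers were low throughout but did not overlap between the groups, at 93.7 to 186 CPM with oxygen and 35 to 80.3 CPM with sevoflurane (exact permutation p = 0.1). Haemoglobin and Alas2 transcripts summed to 161 to 7339 CPM, with oxygen replicate 1 the highest and sevoflurane replicate 1 next at 6012 CPM. In all, 29 nuclei held 3 or more markers of smooth muscle, fibroblasts, microglia, perivascular macrophages, ependyma or choroid plexus, 17 of them in oxygen replicate 3, and the main count of changed genes between the groups is therefore also given without them. A further check found that 12 nuclei had a Scrublet doublet score above 0.3.

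The rule's limits shaped the set. There were 72, 95, 88, 104 and 72 nuclei with 3, 4, 5, 6 and 7 of the 7 endothelial genes. Just inside the limit, the 72 nuclei with exactly 3 had a median of 2054 UMIs, and 61.1% of them showed at least 3 pan-neuronal markers. Just outside, 259 barcodes that met the other limits had exactly 2 of the genes, a median of 4299 UMIs, and at least 3 pan-neuronal markers in 68%. The pericyte limit weighed most: 802 barcodes reached 3 endothelial genes, and 286 of these were set aside for 3 or more pericyte genes, while 85 were set aside for Slc17a7 alone. With the pericyte limit lifted the set held 673 nuclei, from 53 in sevoflurane replicate 1 to 161 in sevoflurane replicate 3.

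The endothelial nuclei differed widely in their mitochondrial share. It ran from 0% to 4.89% of UMIs with a median of 1.01%, above the library medians of 0.146% to 0.433% over all nuclei. Nuclei with at most 1% numbered 212 and those over 1% numbered 219, and since 78 nuclei lay between 0.8% and 1.2%, the 2 classes are ranges of a continuous measure and not cell types. Nuclei over 1% made up 64.3%, 35.7% and 30% of the oxygen libraries and 52.2%, 57.7% and 54.7% of the sevoflurane libraries. These shares overlapped between the groups (43.3% ± 18.4 and 54.9% ± 2.79, SD, n = 3, exact permutation p = 0.4).

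Within the same 6 libraries, nuclei over 1% had 334 genes higher and 264 lower than nuclei with at most 1%, of 2477 tested (24.1% called, edgeR with library as a block). Short genes of brain capillaries were among the higher ones. Slc2a1, the gene of the glucose carrier GLUT1, stood at 2349 ± 630.4 CPM against 1167 ± 284 CPM (SD, n = 6), 1.00 on the log2 scale (SE 0.15, adjusted p = 4.44e-05). Bsg, the basigin gene, whose protein escorts monocarboxylate carriers to the membrane, differed by 1.44 (SE 0.15, adjusted p = 1.67e-06). Itm2a, Ly6a, Ly6c1, Spock2 and Cxcl12 were higher by 1.76, 1.61, 1.31, 1.18 and 1.41 on the log2 scale, each in 6 of 6 libraries. The flow-induced transcription factor genes Klf4 and Klf2 were higher by 1.49 and 1.18. All 8 tested genes of the capillary list were higher, as were 7 of 9 nutrient carriers and 67 of 75 ribosomal protein genes. So were 5 of 8 efflux and organic anion carriers, but these 5 include Slco1a4 and Abcb1a, which the rule used. No gene of these lists was lower. Of all genes tested, 13.5% were higher and 10.7% lower.

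The genes lower in nuclei over 1% were mostly very long. Magi2, a scaffold gene that spans 1477757 bases, stood at 330.1 ± 88.3 CPM against 1192 ± 186 CPM (log2 fold change -1.86, SE 0.18, adjusted p = 9.38e-07), and Ldb2, Rora, Dclk1, Plcl1, Grik2 and Dlg2 were lower by log2 fold changes of -2.40, -1.40, -1.43, -2.01, -1.29 and -1.13. The median span was 12 kb for the higher genes, 335 kb for the lower and 76 kb for all tested. Mgp, the matrix Gla protein gene, which stands in the arterial list, was a short exception at -1.76. Markers of other cells moved with this split: Rgs5 stood at 2471 ± 563 CPM over 1% and at 612 ± 348 CPM in the other class, so that pericyte markers summed to 1937 to 3229 CPM against 233 to 1195 CPM, and inhibitory-neuron markers to 160.4 to 351 CPM against 451 to 1502 CPM. Oligodendrocyte markers were lower over 1% in all 6 libraries (366 to 1259 CPM against 497 to 2738 CPM), and choroid plexus markers reached 30177 CPM over 1% and 1798 CPM in the other class. Fibroblast markers summed to 22.9 to 336 CPM over 1% and to 34.9 to 788 CPM in the other class. They were higher over 1% in 1 of the 6 libraries. Haemoglobin sums were also higher over 1% in all 6 libraries (366 to 10151 CPM against 43.6 to 7101 CPM). Their part in the split was not tested.

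**Figure D2:**
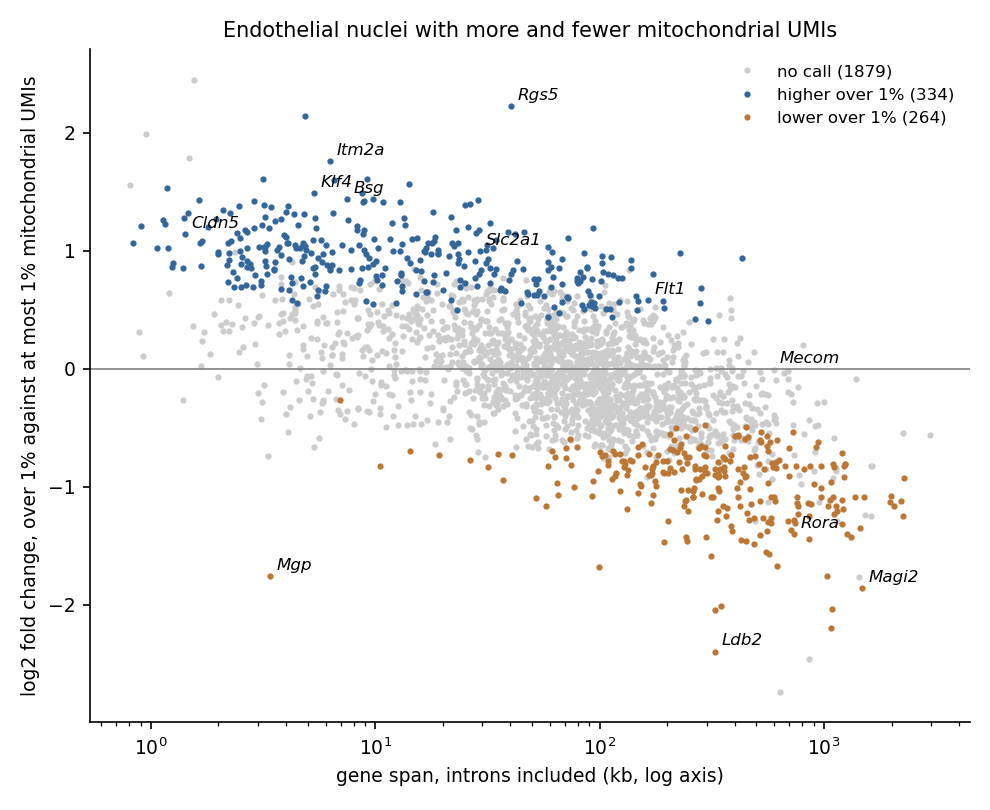
Each point is 1 of the 2476 tested genes with a known span; the horizontal axis gives the span in kb (log axis) and the vertical axis the log2 fold change of endothelial nuclei with over 1% mitochondrial UMIs against those with at most 1%, fitted within the 6 libraries. Higher genes (blue) lie at short spans and lower genes (brown) at long spans, with medians of 12 kb and 335 kb.

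Brain endothelium changes gradually from arteries through capillaries to veins, and the nuclei held transcripts of all 3 zones. After each nucleus was thinned to 500 UMIs, 55% to 80.3% of the nuclei of a library had a UMI of the 10 capillary genes, against 14.4% to 21.9% of thinned astrocyte nuclei. For the 11 arterial genes the thinned share was 13.7% to 28.7%, and for the 12 venous genes 15.3% to 40%. Unthinned, the 3 shares were 87.5% to 100%, 46.9% to 76.2% and 54.9% to 78.8%. The groups overlapped in each zone: with sevoflurane the thinned share differed by 6.94 percentage points for capillary, -2.45 for arterial and -13 for venous genes, with exact permutation p-values of 0.6, 0.6 and 0.4. Oxygen replicate 3 had the lowest capillary and the highest arterial and venous share. A shift between vessel zones was therefore not detectable with 3 libraries a group.

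Sevoflurane and oxygen differed in 24 of the 5429 genes tested in the endothelial nuclei (0.442% called), of which 15 rose (0.276%) and 9 fell (0.166%); 479 genes had an unadjusted p under 0.05. Among the risen genes were the cytokine receptor gene Tnfrsf12a (8.6-fold), the endothelial early-response gene Apold1 (5.14-fold), the genes of the basement membrane and its neighbours Tinagl1 and Col4a2 (2.9-fold and 2.43-fold), and the cytoskeletal genes Clic4 and Pdlim5 (2.65-fold and 2.52-fold). Among the fallen were Nrp1, the co-receptor gene of VEGF (3.02-fold lower), and the transcription regulator genes Zfp521, Mllt3 and Dach1 (2.58-fold to 4.47-fold lower). The libraries of the 2 groups did not overlap for any of the 24 genes, and none lies on a sex chromosome. Over all tested genes, the libraries did not overlap in 6.76% with sevoflurane higher and in 7.85% with sevoflurane lower. Which genes passed depended on single libraries: without sevoflurane replicate 2 no gene was called (411 at an unadjusted p under 0.05, smallest adjusted p = 0.101), without sevoflurane replicate 3 the number was 3, without oxygen replicate 1 it was 7, and without oxygen replicate 2 it was 37. All 24 genes kept their direction in each of the 6 fits with 1 library left out. Rapgef1 and Pdlim5 are named beside the 12 largest rises because so few genes were called.

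Tnfrsf12a encodes Fn14, the receptor of the cytokine TWEAK, which is induced by growth factors and injury in many cells. It lies on chromosome 17 (23675445 to 23677468, mm10) and stood at 10.1, 22.2 and 7.02 CPM in the oxygen libraries and at 173, 107 and 79.6 CPM in the sevoflurane libraries, from 2 to 4 and 13 to 30 UMIs. All sevoflurane libraries were thus well above the highest oxygen library, and the log2 fold change was 3.10 (SE 0.48, adjusted p = 0.0113). A UMI of it was seen in 3.06%, 9.52% and 2.5% of the oxygen nuclei and in 26.1%, 19.7% and 19.7% of the sevoflurane nuclei, against 0.563% to 2.02% of astrocyte nuclei, whose library medians of 3138 to 3815 UMIs were deeper. No oxygen nucleus held more than 1 UMI of it, so the low group rests on very few molecules, while in sevoflurane replicate 1 a single nucleus held 7 of the 13 UMIs. With each nucleus weighted equally its log2 fold change was 2.81 with an adjusted p of 0.0533.

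Apold1, an endothelial gene of the apolipoprotein L family that is switched on quickly by stress, stood at 57.2, 55.4 and 24.6 CPM with oxygen and at 373, 225 and 164 CPM with sevoflurane. Again the groups were apart, by a log2 fold change of 2.36 (SE 0.37, adjusted p = 0.0113). Nuclei with a UMI made up 8.75% to 19% of the oxygen and 29.9% to 56.5% of the sevoflurane nuclei, against at most 0.867% of astrocyte nuclei. Together with Tnfrsf12a it was a gene called in 5 of the 6 fits with 1 library left out. Pxdc1, which encodes a protein with a PX domain, rose, from 6.73, 22.2 and 14 CPM in the oxygen to 147, 78.1 and 69 CPM in the sevoflurane libraries (2.64, SE 0.49, adjusted p = 0.017), from 2 to 4 and 11 to 26 UMIs.

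Irak2, Socs5, Klf3 and Rapgef1 also rose and are described together for their roles, which no list was tested for. Irak2, a kinase gene of interleukin-1 and Toll-like receptor signalling, stood at 74.1, 49.9 and 105 CPM with oxygen and at 293, 225 and 178 CPM with sevoflurane, and its rise was 1.48 on the log2 scale (SE 0.31, adjusted p = 0.0352). Socs5, whose product dampens cytokine receptors, stood at 38.6 to 53.9 CPM in the oxygen and 127 to 147 CPM in the sevoflurane libraries (1.48, SE 0.31, adjusted p = 0.0362), but it was called in 0 of the 6 fits with 1 library left out, at adjusted p-values of 0.0698 to 0.25. Klf3, a transcriptional repressor gene of the Krüppel-like family, stood at 144 to 179 CPM and at 342 to 547 CPM (1.35, SE 0.26, adjusted p = 0.0173). Rapgef1 encodes an activator of the small GTPase Rap1, which strengthens endothelial junctions, and stood at 131 to 147 CPM and at 287 to 440 CPM (1.23, SE 0.26, adjusted p = 0.0352). In these 4 genes sevoflurane replicate 1, the library with the fewest nuclei, was the highest of the 6. This library was also the highest for Tnfrsf12a, Pxdc1, Apold1, Tinagl1, Clic4 and Pdlim5, but not for Pom121, Mthfd1l, St8sia6 or Col4a2.

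Among the other risen genes, 2 act at the cytoskeleton and 2 in the matrix. Clic4, of the intracellular chloride channel family, which takes part in forming the vessel lumen, stood at 441, 515 and 376 CPM with oxygen and at 1507, 1040 and 1008 CPM with sevoflurane (1.41, SE 0.27, adjusted p = 0.0174), and it had the highest CPM among the 24 genes. Pdlim5, a scaffold gene of actin bundles, stood at 244 to 309.7 CPM and at 586 to 813 CPM. For both the lowest sevoflurane library exceeded the highest oxygen library. Tinagl1, which encodes a secreted matrix-associated protein, rose from 77.4, 105 and 98.3 CPM to 373, 229.5 and 244 CPM (1.54, SE 0.28, adjusted p = 0.017), while 0% to 1.04% of astrocyte nuclei held a UMI of it. Col4a2, the alpha 2 chain of type IV collagen, stood at 178, 238 and 144 CPM with oxygen and at 320, 444 and 547 CPM with sevoflurane (1.28, SE 0.27, adjusted p = 0.0352), and here sevoflurane replicate 1 was the lowest of its group.

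The other 3 risen genes serve general cell functions. Pom121, a nuclear pore gene, rose from 16.6 to 23.6 CPM to 53.3 to 82.2 CPM on 3 to 7 and 4 to 31 UMIs. Mthfd1l, a mitochondrial enzyme gene of folate metabolism, rose from 23.6 to 38.6 CPM to 93.3 to 112 CPM. St8sia6, which adds sialic acid to surface glycoproteins, rose from 35.1 to 70.7 CPM to 120 to 169.8 CPM. Their log2 fold changes were 1.93, 1.66 and 1.55 (SE 0.41, 0.36 and 0.32; adjusted p = 0.0386, 0.039 and 0.0352). Each was called in 1 of the 6 fits with 1 library left out.

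Among the 9 fallen genes, Nrp1 has the best known endothelial role: neuropilin 1 presents VEGF to its receptor and binds class 3 semaphorins. It lies on chromosome 8 (128358604 to 128503363, mm10) and stood at 269, 294 and 312 CPM with oxygen and at 40, 78.1 and 133 CPM with sevoflurane. The log2 fold change was -1.60 (SE 0.30, adjusted p = 0.017), and 37.5% to 52.4% of the oxygen nuclei held a UMI of it, against 13% to 24.8% of the sevoflurane nuclei and 20.8% to 34.5% of astrocyte nuclei. The call was kept in 4 of the 6 fits with 1 library left out. St8sia4, a polysialyltransferase gene, stood at 279, 294 and 126 CPM and at 53.3, 48.8 and 63.7 CPM (-2.01, SE 0.35, adjusted p = 0.017), with a UMI in 2.82% to 6.53% of astrocyte nuclei.

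The next 5 fallen genes include 3 that regulate transcription. Dach1, a cofactor gene that acts in arterial growth, stood at 414, 382 and 214 CPM with oxygen and at 93.3, 137 and 141 CPM with sevoflurane (-1.37, SE 0.29, adjusted p = 0.0362). Mllt3, a gene of the machinery of transcript elongation, stood at 309.7, 421 and 323 CPM and at 200, 117 and 84.9 CPM (-1.54, SE 0.30, adjusted p = 0.0179). Zfp521, a zinc-finger gene, stood at 84.2 to 116 CPM and at 18.6 to 26.7 CPM (-2.16, SE 0.39, adjusted p = 0.017). Its sevoflurane values rest on 2 to 7 UMIs. Nhsl1, which encodes a protein at the leading edge of moving cells, had the most even values: 252, 288 and 341 CPM against 93.3, 97.7 and 87.5 CPM (-1.67, SE 0.27, adjusted p = 0.0113). Cdc14a, a phosphatase gene, stood at 105 to 178 CPM and at 13.3 to 48.8 CPM (-1.96, SE 0.36, adjusted p = 0.017).

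Single nuclei carried part of several falls. In oxygen replicate 2 the nucleus with the most UMIs of a gene held 14 of 53 for Nrp1, 11 of 53 for St8sia4 and 15 of 76 for Mllt3. In oxygen replicate 3 it held 17 of 89 for Nrp1. A few nuclei also carried much of the remaining 2 falls. Sh3d19, an adaptor gene, stood at 222, 144 and 376 CPM with oxygen and at 93.3, 53.7 and 39.8 CPM with sevoflurane (-2.23, SE 0.39, adjusted p = 0.017), but 26 of its 107 UMIs in oxygen replicate 3 came from 1 nucleus, as did 22 of 66 in oxygen replicate 1. Without the 29 nuclei that carried markers of other non-neural cells its log2 fold change was -1.31 with an adjusted p of 0.122. Pid1, a gene of insulin signalling, stood at 127 to 249 CPM and at 43.9 to 93.3 CPM (-1.58, SE 0.34, adjusted p = 0.0386), and 24 of 51 UMIs in oxygen replicate 1 came from 1 nucleus. Without those 29 nuclei it was -1.28 (adjusted p = 0.155), and with the pericyte limit lifted it turned to 0.51 (adjusted p = 0.163). Neither gene was thus called without those nuclei. For several of the 24 genes, astrocyte nuclei held a UMI more often than the oxygen endothelial nuclei did: 44% to 68.2% for Irak2, 40.2% to 58.5% for Zfp521, 54% to 64.4% for Pid1 and 73.7% to 90% for Nhsl1. The part of RNA from outside the nucleus in the levels of these genes was not tested.

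**Figure D3:**
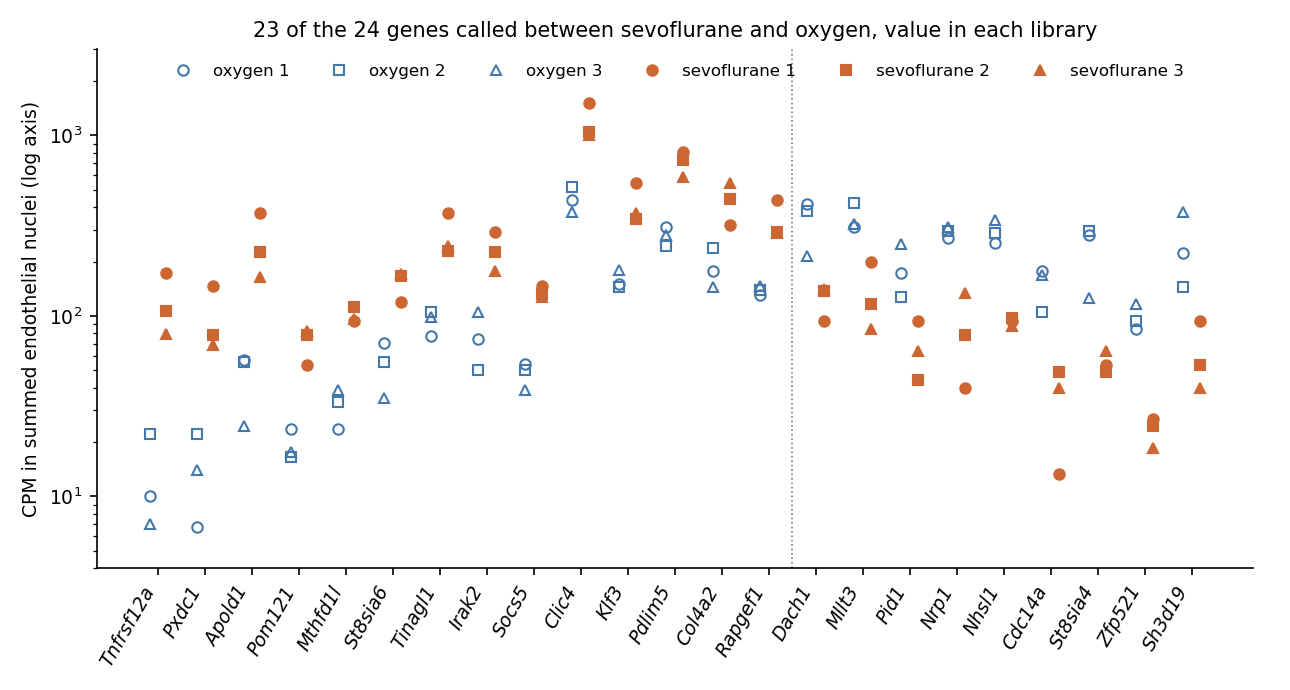
CPM on normalised library sizes (log axis) of 23 of the 24 called genes in the summed endothelial nuclei of each library; open blue marks are the 3 oxygen and filled orange marks the 3 sevoflurane libraries, and the dotted line separates 14 risen from the 9 fallen genes. The marks of the 2 groups do not overlap for any gene drawn, from Tnfrsf12a at 7.02 to 173 CPM to Clic4 at 376 to 1507 CPM.

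AP-1, CREB, TEAD and SRF factors are known regulators of genes that stimulated endothelium induces. The sequences upstream of 3 risen genes and of Nrp1, 4 of the called genes, are shown as examples. They are the 250 bases before the start site in RefSeq (GRCm38.p6), 5′ to 3′ on the gene's strand: chr17:23677450-23677699 (minus strand) for Tnfrsf12a, chr6:134981751-134982000 (plus) for Apold1, chr4:130175123-130175372 (minus) for the more upstream of 2 Tinagl1 start sites, and chr8:128358823-128359072 (plus) for Nrp1. Capitals mark motif matches.
Tnfrsf12a: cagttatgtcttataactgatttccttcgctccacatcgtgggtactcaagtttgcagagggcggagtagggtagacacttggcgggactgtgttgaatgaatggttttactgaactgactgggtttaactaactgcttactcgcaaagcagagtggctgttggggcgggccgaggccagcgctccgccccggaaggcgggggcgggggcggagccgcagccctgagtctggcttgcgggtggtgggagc
Apold1: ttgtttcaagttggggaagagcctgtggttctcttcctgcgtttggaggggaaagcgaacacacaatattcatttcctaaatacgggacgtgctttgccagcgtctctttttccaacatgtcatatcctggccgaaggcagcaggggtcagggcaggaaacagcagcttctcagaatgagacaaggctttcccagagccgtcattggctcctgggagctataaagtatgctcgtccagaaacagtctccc
Tinagl1: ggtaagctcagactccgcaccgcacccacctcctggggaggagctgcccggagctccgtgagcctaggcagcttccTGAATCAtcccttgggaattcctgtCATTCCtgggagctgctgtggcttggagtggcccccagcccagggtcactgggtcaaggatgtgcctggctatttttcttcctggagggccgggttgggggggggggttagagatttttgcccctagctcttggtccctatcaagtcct
Nrp1: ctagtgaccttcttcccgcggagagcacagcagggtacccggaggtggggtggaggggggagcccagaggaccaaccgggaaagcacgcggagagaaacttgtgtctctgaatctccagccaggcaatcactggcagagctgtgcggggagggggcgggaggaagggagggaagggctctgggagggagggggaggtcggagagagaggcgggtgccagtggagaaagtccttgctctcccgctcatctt
Motifs were searched on both strands: AP-1 as TGANTCA, which reads the same on both strands, the cAMP response element as TGACGTCA, TEAD as GGAATG, and the SRF CArG box. Of these 4 windows, the Tinagl1 window alone held a match, an AP-1 match and a TEAD match on the opposite strand. The window of the other Tinagl1 start site (chr4:130174803-130175052), not shown, held 0 matches. Over the 27 windows of the 21 called genes found in the RefSeq table, AP-1 matched 1, TEAD 2 (Cdc14a and Tinagl1), and the cAMP response element and the CArG box 0. Among all 32851 windows the shares with a match were 6.75%, 12.6%, 1.55% and 1.47%. A match is a string of letters and not a binding site, and other stretches were not searched.

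The comparison was repeated in nuclei with many and with few mitochondrial UMIs. In the 219 nuclei over 1%, 12 of 2523 genes were called (0.476%), 9 higher and 3 lower, and 10 of these were among the 24, with Tnfrsf12a, Apold1, Tinagl1, Clic4, Klf3, Pdlim5, Nrp1, St8sia4 and Mllt3 in their number. In the 212 nuclei with at most 1%, edgeR called 0 of 2702 genes (218 at an unadjusted p under 0.05, smallest adjusted p = 0.0531). Some fold changes were close in the low and the high class and others were not. Clic4 had log2 fold changes of 1.28 and 1.26 in the low and the high class, Klf3 1.27 and 1.35, Pdlim5 1.21 and 1.30, Nrp1 -1.51 and -1.64, and Dach1 -1.37 and -1.41. Further apart were Socs5 at 1.10 and 1.76, Irak2 at 1.73 and 1.19, Mllt3 at -1.23 and -1.84, and Nhsl1 at -1.82 and -1.26. Col4a2 was at 1.74 in the low class (adjusted p = 0.0531) and at 0.91 in the high class (adjusted p = 0.276). Tnfrsf12a and Apold1 had too few UMIs in the low class to be tested there. The difference between the classes in these fold changes was not tested. Of the risen genes that could be compared between the classes, Clic4 and Tinagl1 (2 of 9) were also higher over 1%, by 0.83 and 0.80, and of the fallen, Nhsl1 (1 of 5) was also lower, at -0.88. Of all 2477 genes tested between the classes, 13.5% were higher and 10.7% lower over 1%.

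With the pericyte limit lifted, 158 of 8650 genes were called (1.83%), 95 higher (1.1%) and 63 lower (0.728%), and 22 of the 24 genes stayed called. Pom121 (0.98, adjusted p = 0.131) and Pid1 did not. These 673 nuclei include those with 3 or more pericyte genes, so that the calls do not concern endothelial nuclei alone. Without the 29 nuclei with markers of other non-neural cells, 31 of 4542 genes were called, 16 higher and 15 lower, and 20 of the 24 stayed called. Neither this set of nuclei nor the one with the pericyte limit lifted was planned. In the 101 nuclei without 3 markers of any other cell type, 9 of 851 genes were called and Pdlim5 alone was shared.

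**Figure D4:**
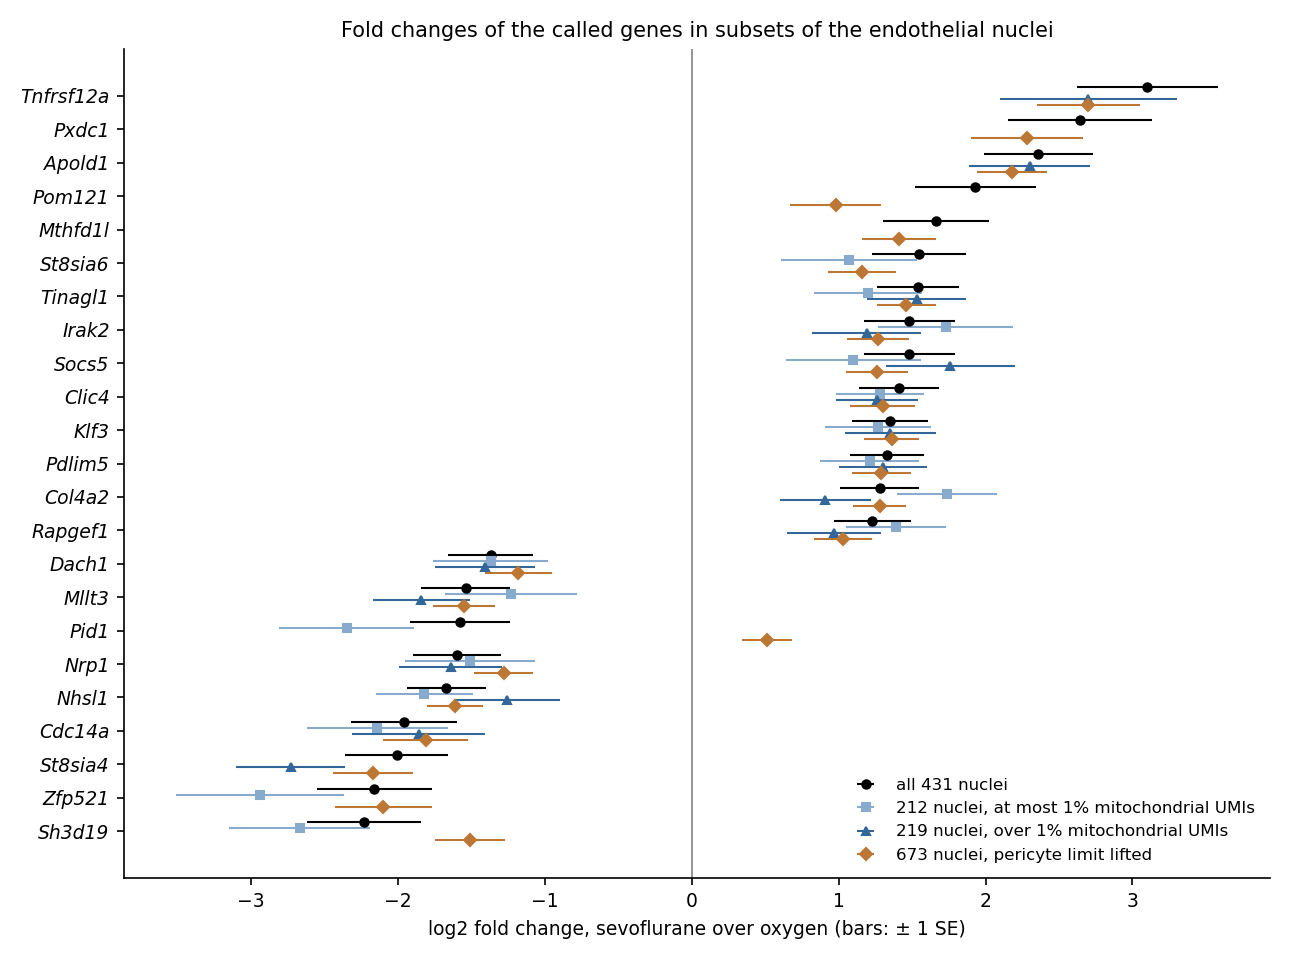
Log2 fold change of sevoflurane over oxygen with ± 1 SE for 23 of the 24 called genes, in all 431 endothelial nuclei (black), in the 212 with at most 1% and the 219 with over 1% mitochondrial UMIs (light and dark blue), and in the 673 nuclei obtained with the pericyte limit lifted (brown). A missing mark means that the gene had too few UMIs in that subset to be tested. All marks of a drawn gene lie on 1 side of 0 except for Pid1, at 0.51 with the limit lifted.

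Of 28 listed genes of VEGF, Tie and Notch signalling, 21 were tested, 1 of them a gene of the rule: Nrp1 fell, none rose, and the median log2 fold change was 0.16, against -0.00277 over all tested genes. This median includes the rule gene and is a description only. Sevoflurane was higher in all libraries for 4 of the 21 and lower for 2. Over all tested genes these shares were 6.76% and 7.85%, to be set beside the counts of each list below. Among the receptors, Kdr, the main VEGF receptor gene, stood at 158, 199 and 105 CPM with oxygen and at 147, 117 and 101 CPM with sevoflurane, which overlapped (-0.39, SE 0.30, adjusted p = 0.784). Robo4, a receptor gene that stabilises vessels against VEGF, stood at 53.9, 105 and 45.6 CPM and at 227, 122 and 141 CPM (1.22, SE 0.35, adjusted p = 0.194). Smad6, the inhibitor of BMP signalling, stood at 30.3 to 91.3 CPM and at 97.7 to 200 CPM (1.40, SE 0.40, adjusted p = 0.199). The Notch ligand gene Jag1 stood at 64 to 88.6 CPM and at 24.4 to 34.5 CPM (-1.26, SE 0.38, adjusted p = 0.204). None of these last 3 passed the test although their libraries did not overlap. With the pericyte limit lifted, 2 of 24 tested genes of the list rose and 3 fell, against 1.1% and 0.728% of all 8650 tested genes. Dll4, the Notch ligand gene of arteries and sprouting tips, held 12, 11 and 8 UMIs with oxygen and 1, 1 and 3 with sevoflurane, too few to be tested. Kdr and Dll4, Lama4 among the matrix genes, and the genes named in the later lists other than Tnfrsf12a, Il6st, Nfkbia, Cxcl12 and Mtap were chosen after their values were seen.

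Of 31 genes of the basement membrane and its proteases, 20 were tested, of which Col4a2 rose and none fell. All sevoflurane libraries were higher in 5 and lower in 2, against 6.76% and 7.85% of all tested genes. Col4a1, which encodes the partner chain of Col4a2 and starts 21 bases from it on the other strand, stood at 215, 271 and 189.6 CPM with oxygen and at 333, 366 and 464 CPM with sevoflurane (0.82, SE 0.25, adjusted p = 0.203). Adamts9, the gene of a secreted metalloprotease that cuts proteoglycans, had the largest fold of the list: 13.5, 55.4 and 17.6 CPM against 533, 161 and 175 CPM (3.27, SE 0.66, adjusted p = 0.115). Its groups lay far apart, yet the spread within the sevoflurane group was wide. In nuclei over 1% mitochondrial UMIs Adamts9 was called (3.51, adjusted p = 0.00866), but 25.9% to 53.7% of astrocyte nuclei also held a UMI of it, against 4.08% to 11.9% of the oxygen and 24.8% to 56.5% of the sevoflurane endothelial nuclei. Timp3, a matrix-bound inhibitor of such proteases, stood at 482 to 508 CPM and at 844 to 1067 CPM (0.88, SE 0.25, adjusted p = 0.167), and was called without the 29 nuclei (0.98, adjusted p = 0.0472). Lama4, the laminin chain gene of endothelial basement membranes, stood at 55.4 to 102 CPM and at 34.5 to 53.3 CPM (-1.10, SE 0.37, adjusted p = 0.295). With the pericyte limit lifted, 5 of 23 tested genes of the list rose and none fell, against 1.1% and 0.728% of all 8650 tested genes.

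Genes of shear stress and vessel tone (12 of 25 tested) gave no call, and the median was 0.72. In all sevoflurane libraries 5 of the 12 were higher and 1 lower, against 6.76% and 7.85% of all tested genes. With the pericyte limit lifted, 4 of 14 tested rose and 1 fell, against 1.1% and 0.728% of all 8650 tested genes. Among the Krüppel-like factors of this list, Klf4 and Klf2 are induced by flow in endothelium. Klf10 stood at 26.9, 33.2 and 38.6 CPM with oxygen and at 160, 103 and 84.9 CPM with sevoflurane (1.66, SE 0.37, adjusted p = 0.0556). Klf4 stood at 172, 277 and 102 CPM and at 639.9, 376 and 387 CPM (1.33, SE 0.33, adjusted p = 0.115). Klf2, which flow induces together with Klf4, overlapped between the groups (0.66, SE 0.34, adjusted p = 0.634). Piezo1, the gene of the ion channel that senses flow, stood at 84.3 to 135 CPM and at 190.4 to 227 CPM (0.91, SE 0.27, adjusted p = 0.199). Calcrl, the receptor gene of adrenomedullin, stood at 118, 149.6 and 144 CPM and at 80, 19.5 and 61 CPM (-1.44, SE 0.37, adjusted p = 0.115), and in oxygen replicate 2 a single nucleus held 15 of its 27 UMIs. Without the 29 nuclei that carried markers of other non-neural cells, Klf4 (1.26, adjusted p = 0.0472) and Calcrl (-1.60, adjusted p = 0.0463) were called. Klf4 and Klf2 were also higher in the nuclei over 1% mitochondrial UMIs, whose share overlapped between the groups, and the part of this in the difference was not tested.

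In the coagulation and urokinase list 7 of 18 genes were tested and none was called (median 0.62). All sevoflurane libraries were higher in 3 of the 7, against 6.76% of all tested genes. Plaur, the urokinase receptor gene, stood at 30.3, 5.54 and 7.02 CPM and at 147, 68.4 and 42.4 CPM on 1 to 9 and 11 to 16 UMIs (2.09, SE 0.61, adjusted p = 0.199). Thbd, the thrombomodulin gene that holds clotting in check, stood at 45.6 to 66.5 CPM and at 93.3 to 142 CPM (1.01, SE 0.32, adjusted p = 0.242). Vwf, the von Willebrand factor gene, overlapped, at 77.4, 172 and 326 CPM and at 80, 68.4 and 101 CPM.

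Of 29 genes of leukocyte adhesion and inflammation, 9 were tested and Tnfrsf12a alone was called; the median was -0.034. Il6st, the signal-transducing receptor gene of the interleukin-6 family, overlapped between the groups (-0.60, SE 0.37, adjusted p = 0.706). Nfkbia, the inhibitor gene that NF-kB itself induces, stood at 259.8 to 382 CPM and at 360 to 438 CPM (0.26, SE 0.24, adjusted p = 0.855), and Cxcl12, the chemokine gene, overlapped as well (-0.39, SE 0.37, adjusted p = 0.862). Vcam1, Icam1, Sele and Selp, adhesion genes of activated vessels, had too few UMIs to be tested. In the interferon list 14 of 41 genes were tested with no call. All sevoflurane libraries were lower in 3 of the 14, against 7.85% of all tested genes. Ddx60 stood at 49.1 to 72 CPM and at 9.77 to 31.8 CPM (-1.43, SE 0.47, adjusted p = 0.264).

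Genes of the barrier itself gave no call. The efflux and organic anion carriers (9 of 11 tested, 2 of them genes of the rule) had a median of -0.60, which includes those 2 and is a description only. Abcg2, Abcc4 and Slc22a8 were lower in all sevoflurane libraries, as were 7.85% of all tested genes, while 6.76% were higher. Abcg2, the breast cancer resistance protein pump, stood at 798, 864 and 488 CPM with oxygen and at 453, 361 and 390 CPM with sevoflurane (-0.85, SE 0.27, adjusted p = 0.239). Abcc4 stood at 549 to 731 CPM and at 307 to 523 CPM (-0.60, SE 0.26, adjusted p = 0.473). The thyroid hormone carrier gene Slco1c1 stood at 586 to 1302 CPM and at 453 to 747 CPM, which overlapped. Of the 2 rule genes in this list, Slco1a4 stood at 2087, 1995 and 1229 CPM and at 1000, 1411 and 1130 CPM, and Abcb1a, the P-glycoprotein gene, at 513 to 975 CPM and at 464 to 667 CPM. Among 14 of 18 nutrient carriers tested, Slc2a1 was higher in all sevoflurane libraries (1411, 1507 and 1000 CPM against 2413, 2202 and 2104 CPM; 0.78, SE 0.27, adjusted p = 0.316), and 2 other carriers were lower in all of them, with no call.

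Junction genes (17 of 20 tested, 3 of them genes of the rule) had a median of -0.11 and log2 fold changes of at most 0.87 in size. The median includes those 3 and is a description only. Tjp1, which encodes the tight junction scaffold ZO-1, differed by -0.35 (SE 0.26, adjusted p = 0.775) and Ocln, the occludin gene, by -0.22 (SE 0.25, adjusted p = 0.881). The transcytosis list (13 of 17 tested, median -0.047) and the list of Wnt signalling in barrier formation (22 of 24 tested, median -0.17) were likewise without a call. In the latter, Reck, a co-receptor gene for Wnt7 ligands, stood at 155, 149.6 and 144 CPM against 53.3, 83 and 42.4 CPM (-1.35, SE 0.32, adjusted p = 0.0902). GABA receptor and leak-type potassium channel genes, textbook sites of volatile anaesthetics, were tested for 5 of 10, and all 5 overlapped between the groups.

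In the circadian list 12 of 19 genes were tested without a call. Dbp, Per3, Nr1d1 and Hlf were lower and Per1 higher in all sevoflurane libraries, as were 7.85% and 6.76% of all tested genes. Dbp, an output gene of the clock, stood at 131, 222 and 98.3 CPM with oxygen and at 13.3, 53.7 and 50.4 CPM with sevoflurane (-1.66, SE 0.39, adjusted p = 0.0846). It was called without the 29 nuclei that carried markers of other non-neural cells (-1.71, adjusted p = 0.0272) and with the pericyte limit lifted (-1.55, adjusted p = 0.00491). Per3 stood at 66.5 to 91.3 CPM and at 24.4 to 37.1 CPM (-1.25, SE 0.38, adjusted p = 0.208). The labels give no clock time of tissue collection. The glucocorticoid list (18 of 27 tested) had 4 genes higher and none lower in all sevoflurane libraries, against 6.76% and 7.85% of all tested genes. None of the 4 was called. Cdkn1a, the cell cycle inhibitor gene, stood at 114, 111 and 49.1 CPM and at 253, 225 and 188 CPM (1.25, SE 0.31, adjusted p = 0.109). The metallothionein genes Mt1 and Mt2, which bind zinc and also belong to the list of metal and oxidative stress (14 of 21 tested, no call), had log2 fold changes of 0.87 and 1.10 (adjusted p = 0.156 and 0.115). Mt1 and Mt2 were also higher in nuclei over 1% mitochondrial UMIs, by 0.87 and 1.21. Sat1 and Atp13a3, genes of polyamine breakdown and transport, were higher in all sevoflurane libraries by 1.18 and 1.12 (adjusted p = 0.199 and 0.14). These were 2 of the 10 tested genes of the polyamine list, against 6.76% of all tested genes. The gene Mtap, which recycles the by-product of polyamine synthesis, held 0 to 6 UMIs per library and was not tested. Sat1 lies on the X chromosome, and sevoflurane replicate 1 differed from the other libraries in its Xist level.

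The other lists were without a call as well: 13 of 36 immediate early genes, 17 of 28 hypoxia genes, 9 of 22 p53 targets, 7 of 26 cholesterol genes, 10 of 20 heat shock and unfolded protein genes and 13 of 20 growth control genes were tested. Their median log2 fold changes lay between -0.15 and 0.29. Ankrd37, a gene induced by low oxygen, held 10, 8 and 7 UMIs in the oxygen and 0 in each sevoflurane library, and was below the filter on low counts. Of the marker lists of vessel zones, 1 of 5 tested arterial genes, Bmx, was lower in all sevoflurane libraries (11 of its 21 UMIs in oxygen replicate 1 and 13 of 27 in oxygen replicate 2 came from 1 nucleus each), and none of 5 venous genes was higher or lower. Stmn2, which stands in the arterial list but is also a pan-neuronal marker, was higher. Of all tested genes, 7.85% were lower and 6.76% higher in all sevoflurane libraries. With the pericyte limit lifted, 1.1% of all 8650 tested genes rose and 0.728% fell, and calls were gained in most lists that had none. Risen were 3 of 23 tested glucocorticoid, 3 of 17 metal and 3 of 15 polyamine genes. So were 2 of 15 transcytosis, 2 of 22 immediate early and 2 of 22 hypoxia genes. In the capillary (10 tested), coagulation (10), nutrient carrier (15), p53 (13), cholesterol (16) and growth control (18) lists 1 gene each rose. Fallen were 2 of 15 nutrient carrier and 2 of 32 interferon genes, and 1 each of 10 efflux, 24 Wnt and 22 hypoxia genes. These nuclei include those with 3 or more pericyte genes, and no list was tested as a set.

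**Figure D5:**
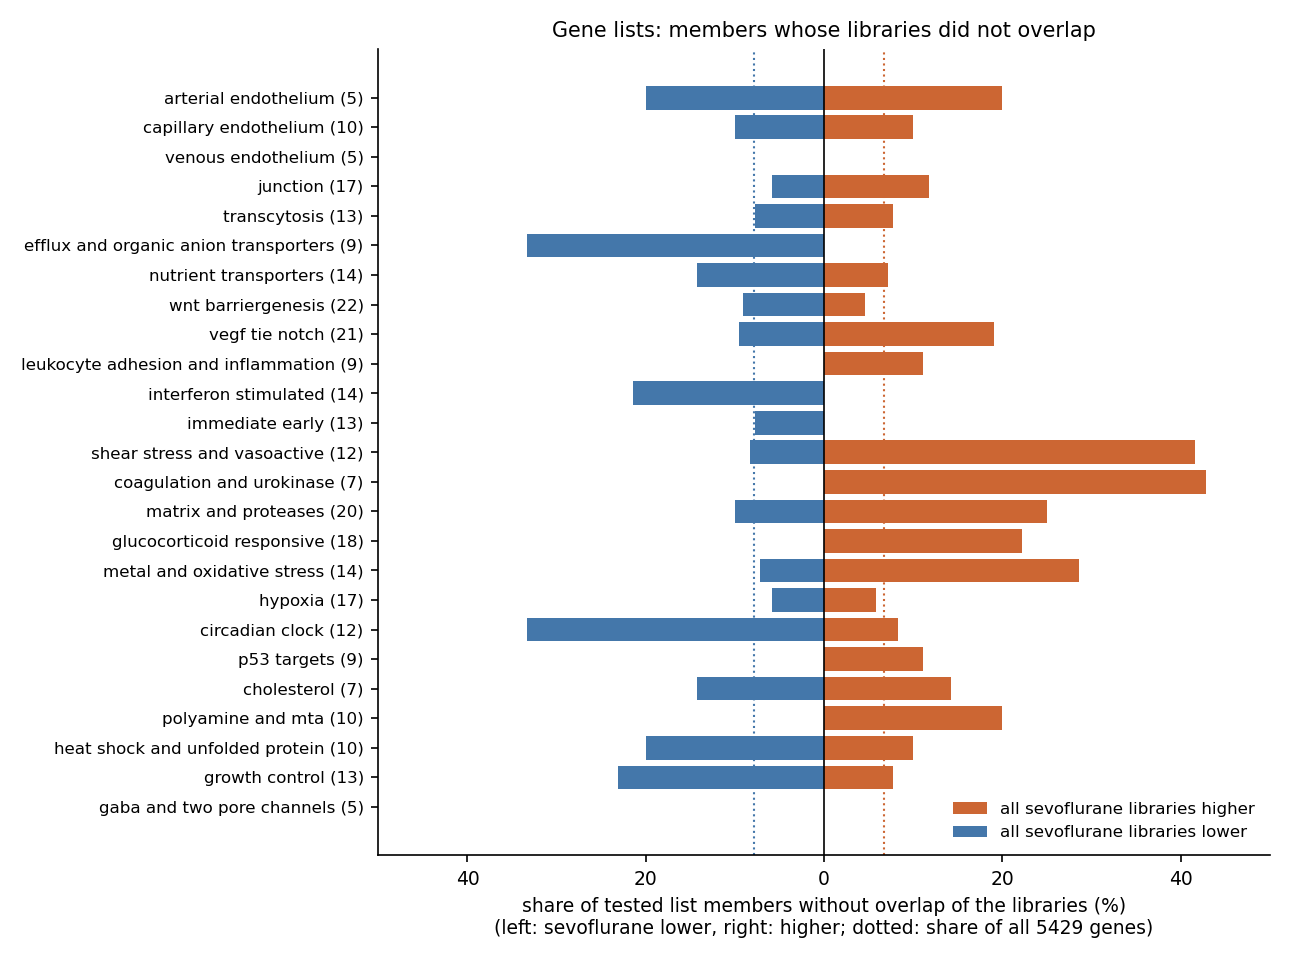
Share of the tested members of 25 gene lists (number tested in brackets) for which all sevoflurane libraries lay above (orange, right) or below (blue, left) all oxygen libraries, in percent; the dotted lines give the same shares over all 5429 genes, 6.76% and 7.85%. The longest bars rest on few genes, 5 of 12 for shear stress and vessel tone and 3 of 7 for coagulation; no list was tested as a set.

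Whether the response differed from that of other cells of the same libraries was tested with limma on differences within each library. Against astrocyte nuclei, 0 of 5201 genes were called (400 at an unadjusted p under 0.05, smallest adjusted p = 0.33), and against microglia nuclei 0 of 5173 (381 at an unadjusted p under 0.05, smallest adjusted p = 0.278). No gene was thus shown to respond in endothelial nuclei otherwise than in these 2 sets. Rapgef1 had a log2 fold change of -0.41 in astrocyte nuclei, and the difference was 1.58 with an adjusted p of 0.348. Nrp1 had -0.45 in astrocyte and -0.16 in microglia nuclei, and the first difference was -1.47 (adjusted p = 0.514). Nhsl1 was itself called in astrocyte nuclei, at -0.78 (adjusted p = 0.0214). Tnfrsf12a, Pxdc1, Apold1, St8sia6 and Tinagl1 had too few UMIs in astrocyte nuclei to enter this comparison. A comparison with pericyte nuclei was not made, since the libraries held 10 to 65 of them and 20 in each were needed.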

How the data were processed

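Nuclei of 3 sevoflurane and 3 oxygen hippocampal libraries were sequenced. Per the submitters' processing notes, fastp, Cell Ranger 7.1.0 and mm10 were used. The sources used here do not say whether introns were counted. The deposited values are whole UMI counts per gene and barcode, of 32285 genes. The endothelial nuclei of each library were summed, and the sums were tested with edgeR 4.0.16 (R 4.3.3; quasi-likelihood test, TMM normalisation, its default filter on low counts). Genes were called at a Benjamini-Hochberg adjusted p under 0.05. CPM of single genes use normalised library sizes, and those of marker lists use plain sums. Differences from astrocyte and microglia nuclei were tested with limma 3.58.1 on log2 CPM (prior count 2). The comparison of mitochondrial classes was added after the data were seen. The fits without nuclei holding markers of other non-neural cells, and those with the pericyte limit lifted, were likewise not planned. Doublets were not removed, and a Scrublet limit was tried instead.

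Named were the 12 largest rises and falls among called genes without overlap whose mean reached 10 CPM with sevoflurane or oxygen, at most 4 genes per list that holds a called gene (those of smallest p), Mtap, the rule's genes and markers. The members and the lists were chosen with earlier results of these data known. The edgeR script was tested on simulated data for the sevoflurane comparison (5123 genes): it called 31.2% of 2-fold and 93.9% of 4-fold changes, and 0.223% of unchanged genes. Alternatives covered nucleus limits, normalisation, tool (DESeq2 1.42.0), filter and left-out libraries. Wilson intervals cover counting error only. The results of 2 genes are not reported here.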

Additional observations from a re-analysis of the deposited data

How the results depend on the processing

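The 24 calls were few and moved with most settings. The count was 0 in nuclei with at most 1% mitochondrial UMIs and 12 in those over 1%, 12 with at least 4 endothelial genes required, 0 without nuclei holding any pericyte gene, 9 without nuclei holding 3 markers of another cell type, 158 with the pericyte limit lifted, 97 with no filter on low counts, 14 with each nucleus weighted equally and 12 with the mitochondrial share as a covariate. For the 2 counts of 0, 218 and 108 genes had an unadjusted p under 0.05. DESeq2 called 18 genes, 14 of them among the 24. With the replicate number as a block 56 genes were called, all 24 among them. Deviations of same-numbered libraries from their group means had correlations of -0.00663, -0.0126 and 0.0582. With few UMIs per gene, such correlations cannot show whether the numbers pair the libraries. With 1 library left out the count was 0 to 37.

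Over all settings, the fold changes of the 24 genes kept direction and call in 299 cases and lost the call in 186. They turned in 1, for Pid1 (0.51 with the pericyte limit lifted). Among genes without a call, Nfkbia turned to -0.0963 in nuclei with at most 1% mitochondrial UMIs, and Cxcl12 to 0.0721 with the pericyte limit lifted and to 0.0286 without oxygen replicate 2 (range -0.75 to 0.0286 with 1 library left out). The difference in the share of endothelial nuclei ran from -0.40 to 0.12 percentage points with 1 library left out, and was above 0 without oxygen replicate 1 (0.022) and without sevoflurane replicate 1 (0.12). The endothelial minus astrocyte comparison gave 0 to 1 calls with 1 library left out, the 1 being Ddx60 without sevoflurane replicate 3 (adjusted p = 0.0233 with limma). The causes were not tested. Depth limits these results: sevoflurane replicate 1 held 23 nuclei, and of simulated 2-fold changes 31.2% were found. The planned comparison with pericyte nuclei was not run, since some libraries held fewer than 20.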
